A study of Mus musculus with 16 samples.

Results

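The inducible heat shock proteins and chaperonins described here are 10 genes of the 36950 in the deposited matrix of UMI counts (UMI, unique molecular identifier, a tag that marks 1 captured mRNA molecule): Hspa1a, Hspa1b, Hspa8, Dnajb1, Hsph1, Hsp90aa1, Hsp90ab1, Hspd1, Hspe1 and Bag3. They were taken by name, all 10 were found, and all 10 passed the low-count filter in the fits of stage and of cell type. The cells came from left ventricles of the TAC model in 16 male mice, where TAC stands for transverse aortic constriction, a narrowing of the aorta that overloads the left ventricle with pressure. By stage there were 2 mice (0w), 2 (2w), 7 (5w), 3 (8w) and 2 (11w), and the labels give neither strain nor age and do not say whether the 0w mice had surgery. Hearts were sliced and digested by 2 routes, protease XXIV with collagenase II for myocytes or a papain-containing enzyme for the other cells, and the route is not given for single cells.

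The deposited annotation sorts the cells into CM (5656 cells), EC (1858), FB (1775), MP (1413), T (606) and GN (181), leaves 3 cells without a type, and divides the types into 47 subclusters. Each mouse contributed 113 to 1269 cells and 3441317 to 121599183 UMIs, of which 17.3% to 84.9% were mitochondrial, and a median cell held 14601.5 non-mitochondrial UMIs. No cell name occurred more than once (0 repeats), and no doublet caller was run here. Cardiomyocyte, fibroblast, endothelial, macrophage and T cell markers were each highest in CM, FB, EC, MP and T by their median over mice, with reservations that bear on every result below. The 7 cardiomyocyte markers summed to a median of 40481 non-mitochondrial CPM in CM (UMIs per 1000000 non-mitochondrial UMIs), but also to 12469 in MP (429 to 47372), 6689 in T, 5790 in EC and 3107 in FB. Subcluster T3 held 1388 CPM of B cell markers against 462 of T cell markers, so T is used here as the label of the annotation. The T sum of mouse 8w 3 also went against its label, with T cell markers at 38.6 CPM against 2189 and 4360 in the 0w mice. Erythroid markers had medians from 8697 in MP to 42388 in T. The cell names carry a plate number. The letters A to L are not part of those names and were given to the plates for this report. Plates A, C, G, H and J held 77.6% to 93.8% CM cells and are called myocyte-rich, the other 7 held 0% to 43.1% and are called myocyte-poor. Each plate held 1 stage except E (mice 5w 1 and 8w 1), so stage and plate cannot be told apart for most mice.

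Heat shock proteins bind unfolded or partly folded proteins and help them fold, hold them soluble or hand them to degradation. In the cytosol, HSP70 proteins (encoded among these genes by Hspa1a, Hspa1b and Hspa8) take up a client with a J-domain partner such as Dnajb1, release it with a nucleotide exchange factor such as Hsph1 or Bag3, and pass some clients to HSP90 (Hsp90aa1, Hsp90ab1), while Hspd1 and Hspe1 form the folding chamber of the mitochondrial matrix. Heat shock factor 1 drives the inducible members through heat shock elements, arrays of the letters GAA in alternating direction, and these genes are also known to respond to the handling and enzymatic digestion of tissue.

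Hspa1a and Hspa1b lie on chromosome 17 and are nearly the same gene in sequence, which matters for reading their counts. In the GENCODE M21 annotation of GRCm38, Hspa1a spans chr17:34969190-34972156 and Hspa1b chr17:34956436-34959238, both on the minus strand and both with 1 exon and no intron. The 250 bases before each start are printed 5′ to 3′ from RefSeq (GRCm38.p6), because the pair differs there at 3 bases only. Capitals mark those 3 bases and the match GAAGATTC, a pair of inverted GAA units that begins 104 bases before the start.
Hspa1a, chr17:34972157-34972406, minus strand: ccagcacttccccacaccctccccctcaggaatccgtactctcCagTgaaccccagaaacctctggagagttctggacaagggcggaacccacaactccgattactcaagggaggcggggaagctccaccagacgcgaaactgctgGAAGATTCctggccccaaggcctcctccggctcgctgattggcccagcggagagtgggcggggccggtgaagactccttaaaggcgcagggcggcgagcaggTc
Hspa1b, chr17:34959239-34959488, minus strand: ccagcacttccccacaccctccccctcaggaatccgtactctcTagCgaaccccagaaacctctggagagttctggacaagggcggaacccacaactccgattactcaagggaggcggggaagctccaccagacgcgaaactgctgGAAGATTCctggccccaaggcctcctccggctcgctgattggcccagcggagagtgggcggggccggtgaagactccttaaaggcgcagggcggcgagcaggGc
Counted from 1 at the 5′ end, with the Hspa1a base first, the differences are C44T, T47C and T249G. Within the transcripts, 52.7% of all 75-base windows of Hspa1a and 55.8% of those of Hspa1b also occur in the other gene, but 0% of the windows after the stop codon do. A read from the shared coding part cannot be given to one gene by sequence, and how such reads were counted is not given in the sources used here, so the split between Hspa1a and Hspa1b is uncertain.

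Hspd1 and Hspe1 lie head to head on chromosome 1, Hspd1 at chr1:55077835-55088243 (minus strand, 12 exons) and Hspe1 at chr1:55088132-55091307 (plus strand, 4 exons), so the first bases of the 2 gene models overlap on opposite strands. Whether the counting used strand is not given in the sources used here. One run of 18 bases at chr1:55088059-55088076 falls in a promoter window of both, and it is printed because it holds 2 overlapping matches of 3 alternating units.
Hspe1 strand: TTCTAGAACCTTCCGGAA
Hspd1 strand: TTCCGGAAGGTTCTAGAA
The run lies upstream of the 1 coding transcript of Hspe1. For the 3 coding transcripts of Hspd1 it falls in an exon of 1, in an intron of 1 and before the start of 1, and in the coding part of none (0). Hsph1 (chr5:149614287-149636376, minus strand, 18 exons), an HSP110 that acts on HSP70, has the match TTCTGGAAAGTTC at chr5:149636288-149636300, which lies in an exon of 2 of its 7 coding transcripts, in an intron of 2 and outside 3. The search used GAANNTTCNNGAA and TTCNNGAANNTTC for 3 units and GAANNTTC and TTCNNGAA for 2 units on both strands, and every match of 3 units contains matches of 2. Of 32851 RefSeq promoter windows of 300 bases (250 before and 50 after a start), 198 (0.603%) held 3 units and 4946 (15.1%) held 2. Windows were found for 7 of the 10 genes. Bag3 had 1 match of 2 units and Dnajb1 none (0), and Hspa8, Hsp90aa1 and Hsp90ab1 are not in the table used. A match is a description of letters and not of binding.

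The other 5 genes sit apart. Hspa8, the constitutive HSP70, spans chr9:40800984-40810087 (plus strand, 9 exons), and Dnajb1 spans chr8:83608193-83612653 (plus strand, 3 exons). Hsp90aa1, the more inducible HSP90, spans chr12:110690605-110702728 (minus strand, 11 exons), and Hsp90ab1, the constitutive one, spans chr17:45567775-45573271 (minus strand, 11 exons). Bag3, a co-chaperone that links HSP70 to autophagy and is known for upkeep of the sarcomere, spans chr7:128523616-128546981 (plus strand, 4 exons).

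In MP cells Hspa1a, Hspa1b, Hspa8 and Dnajb1 were higher than in the mean of the other 4 types, in FB cells Hspa1a, Hspa1b and Hsp90aa1 were lower, and in CM cells Bag3 was higher and Dnajb1 lower. T cells were higher in Hsph1, Hsp90aa1, Hspe1 and Hsp90ab1 and lower in Bag3. The test was edgeR's quasi-likelihood test with Benjamini-Hochberg adjustment over 13887 genes on 66 sums of UMIs per mouse and type, with the mouse as a block, and 14 of 50 gene-by-type results passed an adjusted p of 0.05. The shares of all genes that passed were 23.1% in CM, 19% in FB, 10.7% in EC, 14.2% in MP and 22.7% in T, beside 2, 3, 0, 4 and 5 of the 10 genes, which is below that share in CM and EC and above it in FB, MP and T. Hspd1 passed in no type. In EC, 4 of the 10 had an unadjusted p under 0.05, beside 3202 of the 13887 genes, and DESeq2 was not run on this comparison. The annotation may have been drawn from these same counts, so these are differences between annotated groups and not between independently named cells. Together the 10 genes made up 0.390% of non-mitochondrial UMIs in CM, 0.431% in FB, 0.472% in GN, 0.481% in EC, 0.667% in MP and 0.712% in T. In sums, fewer expressing cells and fewer transcripts per cell cannot be told apart; shares of cells are given below.

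**Figure D1:**
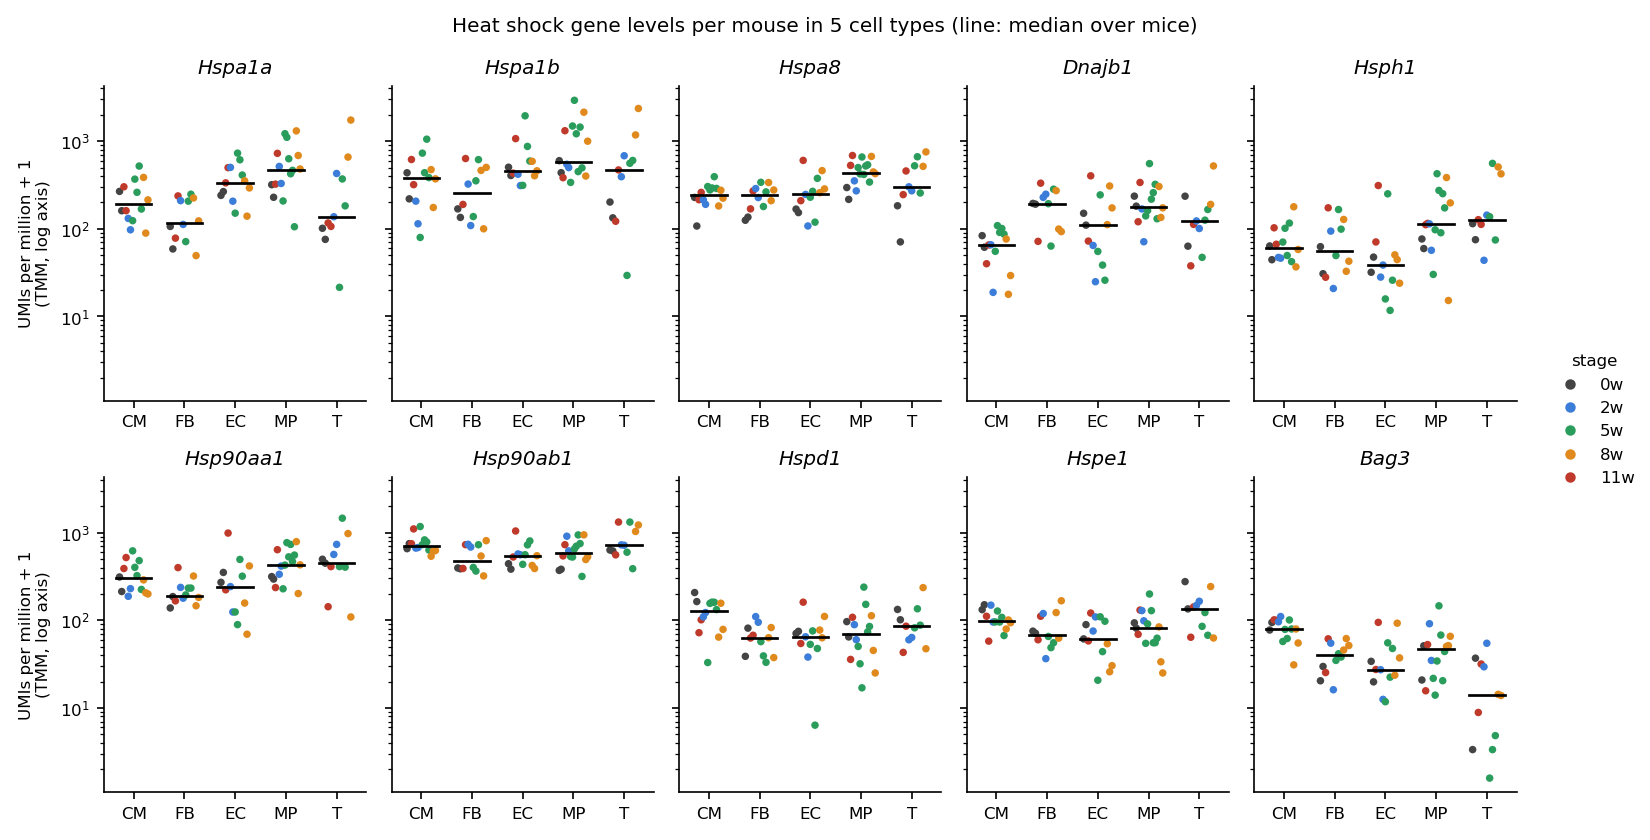
Level of each gene in every mouse with at least 10 cells of a type (points, coloured by stage; line, median over mice), as CPM scaled by TMM over all types plus 1, on a log axis. MP points sit high for Hspa1a, Hspa1b and Hspa8, FB points low for Hspa1a, and CM points low for Dnajb1 and high for Bag3, with ranges that overlap between neighbouring types.

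The heat-inducible HSP70 pair was highest in MP. Hspa1a stood at 105 CPM (lowest mouse), 472 (median) and 1309 (highest) in the 16 MP sums. In the paragraphs on types, CPM are UMIs per 1000000 UMIs of a sum, scaled by TMM (trimmed mean of M values) over all types. In EC it stood at 138, 333 and 729, in CM at 88.3, 190 and 519, in T at 20.5, 136 and 1740, and in FB at 48.5, 117 and 247. T thus held both the lowest and the highest mouse, and the ranges of types next to each other in this order overlapped. Against the mean of the other types, Hspa1a was higher in MP by 1.10 ± 0.23 on the log2 scale (SE; adjusted p = 0.00021; higher in 14 of 16 mice) and lower in FB by a log2 difference of -1.27 ± 0.29 (adjusted p = 0.000613; lower in 12 of 12).
Hspa1b had medians of 571 in MP (337 to 2922), 469 in T (28.4 to 2358), 458 in EC (310 to 1945), 376 in CM (78.7 to 1052) and 256 in FB (99.1 to 632). It was higher in MP by 0.89 ± 0.20 (adjusted p = 0.000574; 15 of 16 mice) and lower in FB, at -0.97 ± 0.25 (adjusted p = 0.00276; 11 of 12 mice). In EC the differences of Hspa1a (0.61, adjusted p = 0.116) and Hspa1b (0.54, adjusted p = 0.110) did not pass.

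Hspa8, which cells express without stress and which also uncoats clathrin vesicles, had a median of 435 in MP (216 to 685), 300 in T (69.9 to 753), 246 in EC (107 to 602), 245 in FB (124 to 338) and 243 in CM (107 to 392). It was higher in MP by 0.69 ± 0.14 (adjusted p = 9.16e-05), in 16 of 16 mice, while EC, FB and CM had nearly the same median. Its partner Dnajb1, which presents clients to HSP70, was low in CM: the CM sums ran from 16.9 to 108 with a median of 64.6, against medians of 193 in FB (62.6 to 331), 176 in MP (70.2 to 554), 122 in T (36.8 to 521) and 109 in EC (23.9 to 401). The CM difference was -1.36 ± 0.29 (adjusted p = 0.000219; lower in 13 of 14 mice), and the MP difference 0.72 ± 0.23 (adjusted p = 0.0234; higher in 16 of 16).

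Bag3 had its highest median in CM and its lowest in T. CM held 30.04 to 109 CPM with a median of 78.6, MP 13.01 to 145 (46.2), FB 15.1 to 60.9 (38.9), EC 10.8 to 93.8 (26.5) and T 0.586 to 53.7 (12.9). It was higher in CM by 1.31 ± 0.28 (adjusted p = 0.000229; 13 of 14 mice) and lower in T, at -1.60 ± 0.37 (adjusted p = 0.00094; 10 of 11 mice). CM was thus high in one partner of HSP70, Bag3, and low in another, Dnajb1. Both CM calls kept their sign in all 22 alternatives, and each was lost in 1. Most CM cells lay on myocyte-rich plates. Within mice, Bag3 on rich against poor plates differed by 0.90 in FB, 2.87 in EC, 1.64 in MP and 2.09 in T, and none passed. For Dnajb1 the values were 0.15, -1.88, -1.61 and -1.62, and only MP passed. The part of plate class in the CM calls was not tested.

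The HSP90 genes and Hsph1 leaned towards T. Hsph1 had medians of 126 in T (42.8 to 557), 112 in MP (14.2 to 424), 60.0 in CM (35.8 to 177), 55.1 in FB (19.8 to 173) and 37.6 in EC (10.7 to 311), and the T difference was 1.16 ± 0.29 (adjusted p = 0.00242; 8 of 11 mice). Hsp90aa1 had medians of 447 in T (108 to 1461), 427 in MP (201 to 789), 300 in CM (187 to 619), 242 in EC (68.4 to 988) and 190 in FB (137 to 398). Its T difference was 0.75 ± 0.23 (adjusted p = 0.0127; 8 of 11 mice) and its FB difference -0.78 ± 0.23 (adjusted p = 0.0109; lower in 11 of 12). Hsp90ab1 varied least between types, with medians of 717 in T (387 to 1320), 703 in CM (537 to 1173), 580 in MP (316 to 943), 545 in EC (382 to 1044) and 471 in FB (320 to 810), and its T difference was 0.40 ± 0.14 (adjusted p = 0.0341; 10 of 11 mice).

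The mitochondrial pair did not separate CM from the rest at this threshold. Hspd1, the chamber subunit, had medians of 127 in CM (32.0 to 206), 84.7 in T (42.1 to 235), 68.2 in MP (16.0 to 238), 63.9 in EC (5.37 to 160) and 62.1 in FB (32.2 to 109), and the CM difference was 0.52 ± 0.23 (adjusted p = 0.101). Hspe1, the lid of the chamber, had medians of 134 in T (61.9 to 275), 97.5 in CM (56.9 to 150), 81.7 in MP (24.1 to 199), 67.3 in FB (35.6 to 166) and 60.4 in EC (19.7 to 120). It was higher in T by 0.60 ± 0.22 (adjusted p = 0.0424; 9 of 11 mice), while the CM difference was 0.33 (adjusted p = 0.265). In an alternative chosen after seeing the data, CM sums came from myocyte-rich plates alone and the other types from myocyte-poor plates alone. There the CM difference of Hspd1 was 1.33 (adjusted p = 0.00364, edgeR's quasi-likelihood test) and 16 results passed. Cell type and class of plate cannot be told apart for CM in that alternative. Within mice, Hspd1 in MP was also higher on myocyte-rich plates, by 1.31 ± 0.36. The T calls of Hsp90ab1 and Hspe1 were lost in 10 and 9 of 22 alternatives. Without mouse 8w 3, whose T sum nearly lacked T cell markers, 16 results passed: the T call of Hsp90ab1 was lost (0.32, adjusted p = 0.115), and Hspa1a (0.78, adjusted p = 0.0169) and Hspa1b (0.69, adjusted p = 0.0252) passed in EC and Dnajb1 in FB (0.80, adjusted p = 0.0156).

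Markers of other cells moved with type too: 5 of 7 endothelial and 5 of 5 mural markers were higher in CM, and 4 of 4 B cell markers were higher in T. Their part in the calls of CM and T was not tested.

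Other chaperone genes were tested in the same fit. The median log2 difference of the 10 genes was -0.16 in CM, -0.38 in FB, -0.23 in EC, 0.48 in MP and 0.37 in T, beside 0.31, 0.05, -0.03, -0.19 and -0.35 over all genes tested. Mitochondrial chaperones and proteases were higher in CM for 8 of 11 genes and lower for 0, with a median of 1.12. Among them were Hspa9, the matrix HSP70 (1.58), its exchange factor Grpel1 (1.11), its J-domain partner Dnaja3 (1.88) and the protease Lonp1 (1.63). In the other types 0 of these 11 genes were higher, and 1 was lower, Clpp in MP (-1.15). Cytosolic co-chaperones were higher in CM for 10 of 31 genes and lower for 1. The myosin chaperone Unc45b (2.05), Bag2, which inhibits the ubiquitin ligase of the HSP70 system (2.68), the HSP90 immunophilin Fkbp4 (1.36) and the J-domain protein Dnaja2 (1.32) had the smallest p. In T 5 co-chaperones were higher, with Cacybp (1.18) and Dnajc7 (1.05) among them, and 3 lower, with the ubiquitin ligase Stub1 (-4.14) and Bag5 (-2.12) among them. In FB 1 was higher (Bag5, 1.14) and 2 lower (Unc45b, -1.83; Fkbp4, -1.11), in EC 2 were higher and 2 lower, and in MP 0 passed, with 4 at an unadjusted p under 0.05. Cytosolic CCT chaperonin subunits moved little: Cct8 was higher in CM (0.65), Cct5 lower in EC (-0.72) and higher in T (0.60), and no other of the 8 passed. Of the 5 prefoldin genes tested, Pfdn1 was higher in CM (0.78) and Vbp1 lower in MP (-0.94). Of 3 heat shock factor genes tested, Hsbp1, a factor binding protein, was higher in MP (0.65) and FB (0.62) and lower in T (-1.15).

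Immediate early genes, which tissue digestion is known to raise, moved with type as well. Of 20, 11 were higher and 1 lower in MP, 10 higher and 0 lower in FB, 4 higher in EC, 5 lower in CM and 12 lower in T. In MP the examples were Atf3 (2.04), Ppp1r15a (2.02), Zfp36 (1.53) and Klf6 (1.44), in FB Cyr61 (2.13) and Egr1 (1.55). Of the 10 heat shock genes, 4 were higher in MP, 3 lower in FB, 0 changed in EC, 1 was higher and 1 lower in CM, and 4 were higher and 1 lower in T. The part of digestion in the heat shock levels was not tested.

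Detection per cell was highest in MP for Hspa1a. As deposited, 75.5% of MP cells held a UMI of Hspa1a, against 63.0% of EC, 60.8% of GN, 53.4% of CM, 52.8% of FB and 52.8% of T cells. Types differed in depth (median non-mitochondrial UMIs 22286 in MP, 18335 in FB, 17110 in EC, 14766 in T, 12469 in CM and 11756 in GN), so cells were also thinned to 2000 UMIs, leaving out 183 CM, 110 FB, 28 EC, 25 MP, 9 T and 6 GN cells. After thinning, 47.5% of MP, 35.1% of EC, 34.3% of GN, 26.4% of CM, 24.3% of T and 23.7% of FB cells held Hspa1a. Of the 10 genes, Hsp90ab1 was found in the most CM cells, 91.6% as deposited and 72.3% after thinning. Bag3 was found in 40.1% of CM cells and 20.5% of T cells as deposited and in 16.4% and 5.36% after thinning. All 6 types express these genes, so no type could serve as a background for free RNA.

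Counted as deposited, without thinning, few cells carried most of the transcripts. Differences in depth between cells enter these shares of UMIs. The tenth of cells richest in a gene held 53.4% of its UMIs for Hsp90ab1 in CM and 99.0% for Bag3 in GN, the lowest and highest values of any gene and type. For Hspa1a it held 78.1% in CM and 88.6% in T. Hspa1a and Hspa1b were found together more often than apart: among thinned MP cells with Hspa1a 73.9% held Hspa1b, against 31.8% of those without, and in CM the shares were 59.5% and 24.2%, in T 64.1% and 22.1%, in EC 64.6% and 31.9%, in FB 59.6% and 28.6%. How much of this overlap comes from reads of the shared coding part was not tested. For the head-to-head pair Hspd1 and Hspe1 the shares lay closer together: Hspe1 was found in 25.9% of CM cells with Hspd1 and 19.7% of those without, in 40.2% and 21.3% of T cells, and in 19.1% and 18.8% of FB cells. Hsph1, on another chromosome than Hspa1b, was also more frequent beside it. It was found in 26.4% of MP cells with Hspa1b and 10.2% of those without, in 16.5% and 7.28% of CM cells, and in 24.2% and 9.65% of FB cells.

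**Figure D2:**
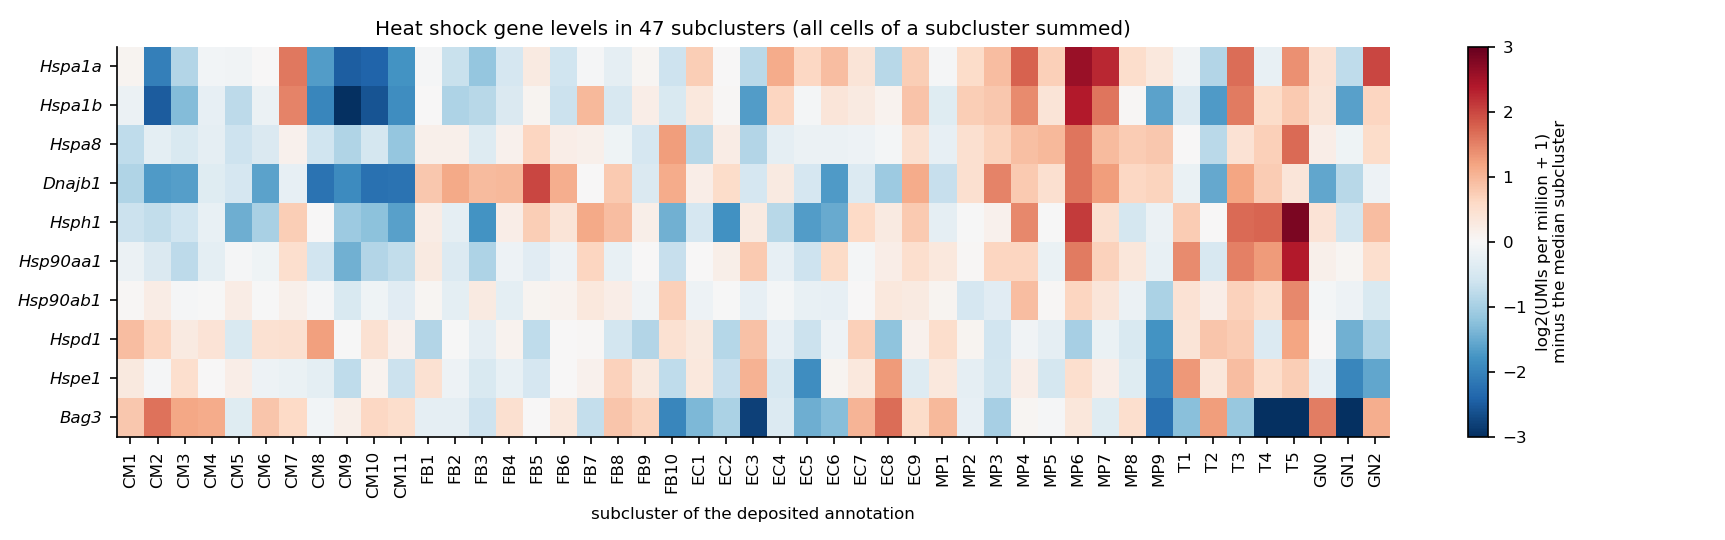
Level of each gene (rows) in the 47 subclusters (columns), all cells of a subcluster summed, as log2 of non-mitochondrial CPM plus 1 minus the median over subclusters; colours end at 3 and -3. MP6 is red in the upper 6 rows, T5 for Hsph1, Hsp90aa1 and Hspa8, and CM7 for Hspa1a and Hspa1b, for which CM9 and CM10 are blue.

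Within types, the HSP70 pair varied most between the subclusters of CM. Subclusters may have been drawn from these counts, so their levels, given as non-mitochondrial CPM, are a description with no test. Among the 11 CM subclusters, CM7 (527 cells) was the highest for Hspa1a (1281), Hspa1b (2404), Hspa8 (611), Dnajb1 (197), Hsph1 (273) and Hsp90aa1 (846). CM9 (540 cells) was the lowest for Hspa1a (76.8) and Hspa1b (96.2), and CM10 (952 cells) came close to it with 80.9 and 141. CM7 exceeded CM9 by a ratio of 16.7 for Hspa1a and 25.0 for Hspa1b.
CM7 and CM9 were picked as the highest and lowest of these subclusters, so the values inside single mice describe the same cells and are no independent support. Of the 6 mice with at least 10 cells of both, Hspa1a was higher in CM7 in 6, by ratios of 8.47 to 18.3 with a median of 12.1, and Hspa1b in 6, by 11.0 to 22.0 with a median of 19.995. Against CM10, it was 8 of 8 mice for both genes, with ratios of 9.66 to 18.7 and of 7.46 to 29.6. Hspa8 was higher in CM7 than in CM9 in 6 of 6 mice by only 1.48 to 3.01. Dnajb1 and Hsp90ab1 were higher in 6 of 6, Hsph1 and Hsp90aa1 in 5 of 6 and Hspd1 in 4 of 6. Against CM10, Hspe1 was higher in CM7 in 3 of 8 mice and Bag3 in 4 of 8.
All 3 subclusters came mostly from 5w mice (CM7 69.1%, CM9 57.2%, CM10 51.4% of cells). CM7 cells also carried 2300 CPM of endothelial markers, 1888 of mural markers and 4770 of immediate early genes, against 263, 257 and 1041 in CM9 and 227, 392 and 1130 in CM10. Cardiomyocyte markers were 36245 in CM7, 36810 in CM9 and 53860 in CM10. The part of other cells or of digestion in the CM7 levels was not tested.
The other 4 genes peaked elsewhere among CM subclusters: Hsp90ab1 in CM5 (1429), Hspd1 in CM8 (409), Hspe1 in CM3 (284) and Bag3 in CM2 (257).

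Outside CM, the highest levels lay in small subclusters drawn mostly from 1 plate. MP6 (99 cells, 60.6% from plate F, 75.8% from 5w) had the highest Hspa1a (2582) and Hspa1b (4458) of the 47 subclusters, followed by MP7 with 2047 and 2600. MP6 also held Hspa8 at 1710, Dnajb1 at 711, Hsph1 at 701 and Hsp90aa1 at 1759. Its macrophage markers summed to 14125, its cardiomyocyte markers to 2050, its erythroid markers to 60007 and its immediate early genes to 9380. Of its cells, 14 came from mouse 5w 1, 29 from 5w 2 and 31 from 5w 3.
T5 (36 cells, 83.3% from plate F) had the highest Hsp90aa1 (3123), Hsp90ab1 (3320), Hsph1 (1151) and Hspa8 (1833), with T cell markers at 5934. FB5 (83 cells, 71.1% from plate F) had the highest Dnajb1 (933). GN2 (46 cells, 76.1% from plate F), with neutrophil markers at 69153, held Hspa1a at 1711. These 4 subclusters share plate F, which held 235 annotated cells of 5w mice and 0% CM. On the other plates the 39 MP6 cells, from 11 mice, held Hspa1a at 2069 and Hspa1b at 2624, against 2959 and 5807 in the 60 cells of plate F. Dnajb1 in FB5 was 1331 in the 24 cells of other plates and 546 in the 59 of plate F. Hsp90aa1 in T5 was 1285 in 6 cells of other plates and 3802 in 30 of plate F, and Hspa1a in GN2 was 1583 in 11 cells and 1844 in 35. All MP cells of plate F together held Hspa1a at 2986 and Hspa1b at 5857 CPM, the highest of the 12 plates.
The mitochondrial pair and Bag3 peaked in other places: Hspd1 in CM8 (409), Hspe1 in T1 (494) and Bag3 in EC8 (266), with CM2 (257) and GN0 (242) next.

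Stage was compared within each type, and none of the 10 genes passed in any of 5 contrasts: each of the 4 later stages against 0w, and the mean of 8w with 11w against 5w. By edgeR's quasi-likelihood test on sums per mouse, 0 of 250 results passed, 10 had an unadjusted p under 0.05, and DESeq2 also passed 0. Over all genes, 3.01% to 16.1% had an unadjusted p under 0.05 by the edgeR test, depending on type and contrast. In CM the share of 15893 genes that passed was 0% in the 4 contrasts with 0w and 0.0189% for 8w with 11w against 5w. It was 0% throughout in FB and MP, 0.00688% at 5w in EC and 0% in its other contrasts, and in T 0.0661% at 5w, 0.248% for 8w with 11w against 5w and 0% otherwise. The counts over all genes depended on the tool and the settings: summed over the 5 contrasts, edgeR passed 3 results in CM and DESeq2 702, in FB 0 and 1454, in EC 1 and 499, in MP 0 and 126 and in T 38 and 742, and in CM edgeR passed 684 without the low-count filter and 641 without plate E. With 2 mice at 0w the standard errors were wide: the median SE of the 10 genes at 5w was 0.77 on the log2 scale in EC and 0.67 in MP. Levels in the stage paragraphs are CPM scaled by TMM within the type. Where stages do not overlap in them, the share of all genes with the same order of mice was not counted, so such orders are descriptions.

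**Figure D3:**
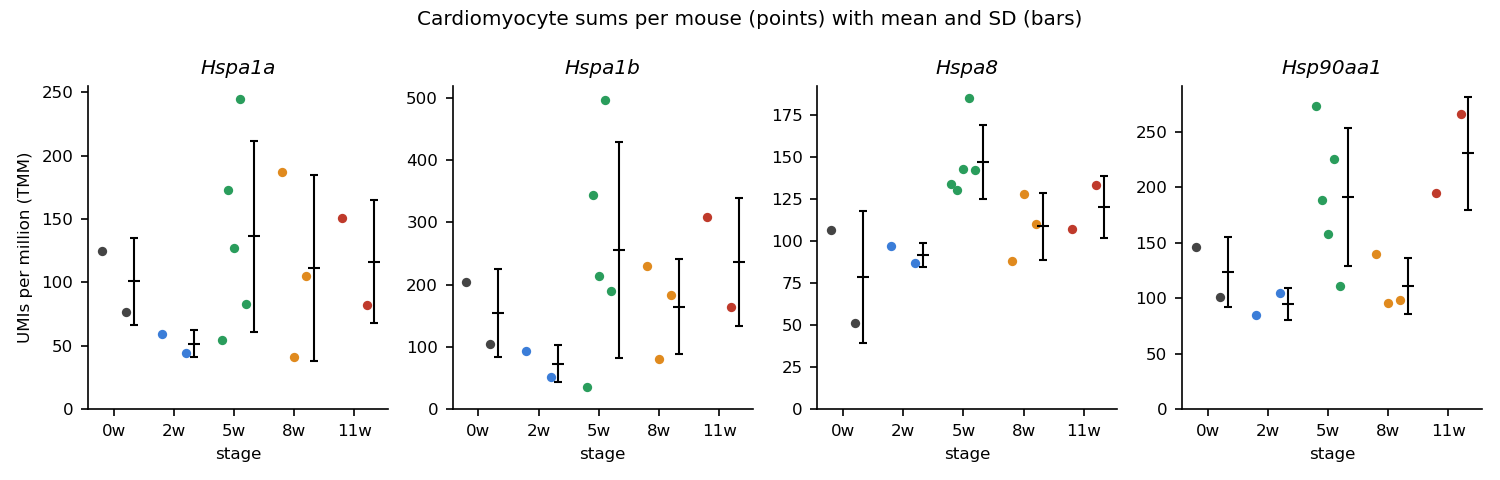
Level of Hspa1a, Hspa1b, Hspa8 and Hsp90aa1 in the CM sum of each mouse (points, by stage; bars, mean and SD), in CPM scaled by TMM within CM, from 0. Both 2w mice lie below both 0w mice for Hspa1a, and all 5 mice of 5w lie above both 0w mice for Hspa8.

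In CM, Hspa1a was 125 and 76.5 in the 0w mice, 59.2 and 44.2 (2w), 54.3, 173, 127, 245 and 82.6 (5w), 187, 41.1 and 105 (8w), and 151 and 82.3 (11w). Both 2w mice lay below both 0w mice, while the 5w mice spanned a range wider than all other stages. Hspa1b was 204 and 105 (0w), 93.5 and 51.8 (2w), 34.8, 343, 214, 496 and 189 (5w), 230, 81.0 and 183 (8w), and 309 and 163 (11w). The same 5w mouse, number 6, was highest for both genes, and number 1 was the lowest of that stage for both.
Hspa8 was 107 and 51.0 (0w), 96.8 and 86.6 (2w), 134, 130, 143, 185 and 142 (5w), 88.2, 128 and 110 (8w), and 107 and 133 (11w). All 5 mice of 5w lay above both 0w mice, and the difference was 0.90 ± 0.37 (unadjusted p = 0.0283; adjusted p = 0.695). Hsp90aa1 was 146 and 102 (0w), 84.9 and 105 (2w), 274, 189, 158, 226 and 111 (5w), 140, 95.3 and 98.3 (8w), and 195 and 267 (11w). Both 11w mice lay above both 0w mice, and the difference was 0.90 ± 0.46 (adjusted p = 0.584). Hspd1 went the other way, 77.8 and 96.9 in the 0w mice against 35.7 and 51.5 in the 11w mice, as did Hspe1, 61.7 and 71.6 against 29.2 and 55.2, and neither passed. The median difference of the 10 was 0.41 at 11w and -0.14 over all genes, and at 2w it was -0.33 with 2 of 10 positive, against 0.05 over all genes. Markers moved with stage in the CM sums. Cardiomyocyte markers had medians of 41481, 59985, 48238, 25415 and 18839 non-mitochondrial CPM over the 5 stages in turn, and both 11w mice (16865 and 20812) lay below both 0w mice (38143 and 44819). Erythroid markers were 10800 and 4249 in the 0w mice and 8100 and 88449 in the 11w mice. The part of these markers in the stage values was not tested.

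**Figure D4:**
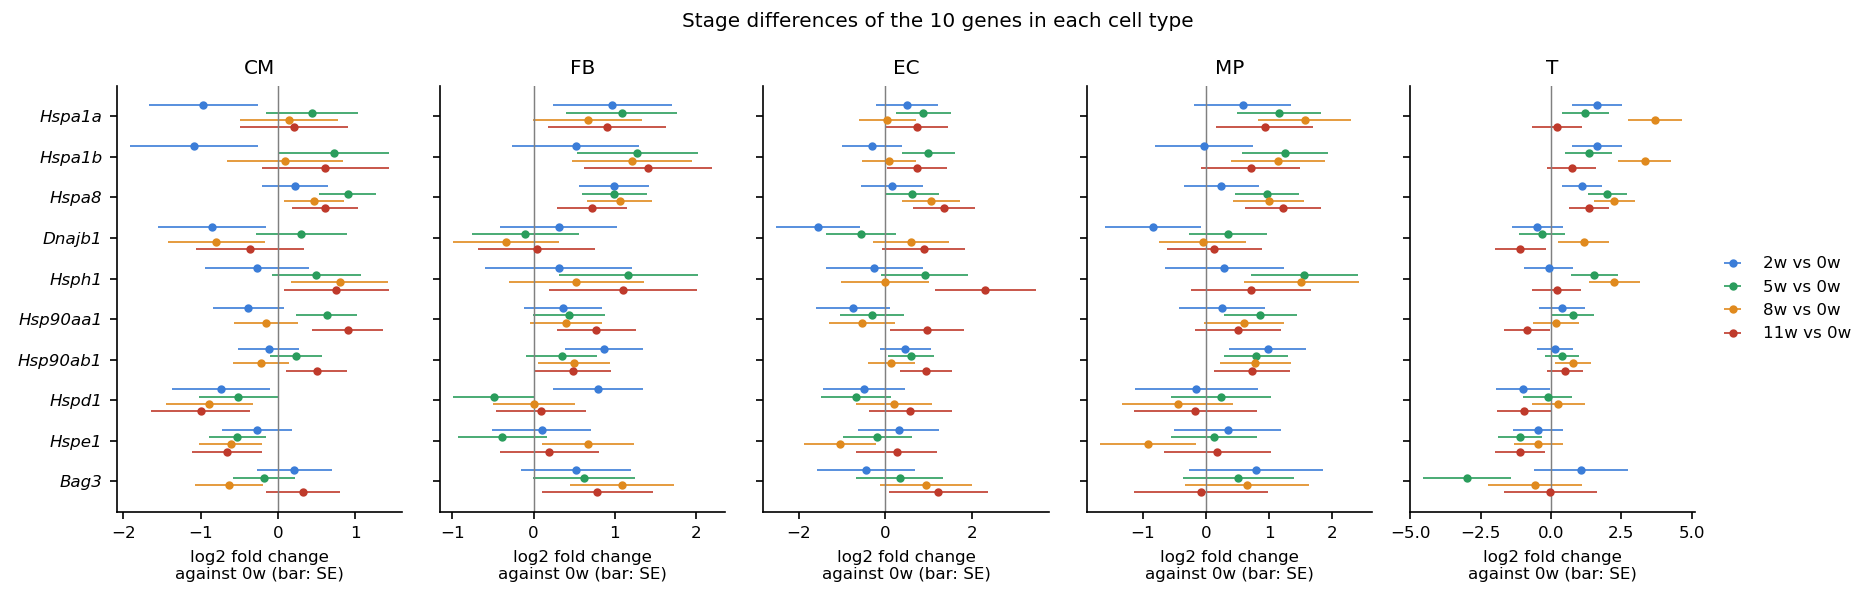
Log2 fold change of each gene against 0w in the 5 types at 2w, 5w, 8w and 11w (points; bars, SE). Most bars are long relative to the changes, and the points farthest right in T are Hspa1a (3.70) and Hspa1b (3.34) at 8w.

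In FB, Hspa8 is named because its later mice all lay above the 0w mice, but it did not pass. The 0w cells came from plates A and B, which held no other stage, so stage and plate cannot be told apart here. It was 194 and 207 (0w), 445 and 351 (2w), 517, 271 and 410 (5w), 512, 314 and 427 (8w), and 251 and 409 (11w), so all 10 later mice lay above both 0w mice. The differences were 0.99 ± 0.43 at 2w (adjusted p = 0.444), 1.00 ± 0.40 at 5w (adjusted p = 0.499) and 1.06 ± 0.40 at 8w (adjusted p = 0.498). All 10 genes had positive estimates in FB at 2w (median 0.52, all genes -0.01) and 11w (median 0.75, all genes -0.05), in EC at 11w (0.91, all genes -0.08) and in MP at 5w (0.83, all genes -0.04). These 4 comparisons use the 0w mice as their common base. Every other contrast with 0w held fewer positive estimates, down to 2 of 10 in CM at 2w. The share of all genes with a positive estimate was not counted. Cardiomyocyte markers in the MP sums had medians of 28032 non-mitochondrial CPM at 5w and 12191 at 0w, and their part was not tested.

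T showed the widest estimates, from 11 mice. Hspa1a was 137 and 97.8 in T of the 0w mice, 177 and 549 (2w), 28.1, 539 and 258 (5w), 880 and 2170 (8w), and 136 and 136 (11w). Hspa1b was 274 and 173 (0w), 508 and 876 (2w), 38.9, 814 and 854 (5w), 1574 and 2942 (8w), and 142 and 605 (11w). Both 8w mice lay above all others for both genes. The T sum of mouse 8w 3, from 13 cells, held 368075 non-mitochondrial CPM of erythroid markers and 38.6 of T cell markers, with 4 of the 7 at 0. That of mouse 8w 1, from 41 cells, held 19340 and 1706, against 11527 and 8168 of erythroid and 4360 and 2189 of T cell markers in the 0w mice. Their part in the 8w values was not tested. The 8w differences were 3.70 ± 0.97 for Hspa1a (unadjusted p = 0.000752; adjusted p = 0.528) and 3.34 ± 0.95 for Hspa1b (unadjusted p = 0.00164; adjusted p = 0.528), and those of Hspa8 and Hsph1 were 2.26 each (adjusted p = 0.528). The median over the 10 genes was 0.98 against -0.59 over all genes. Without plate E, which holds mouse 8w 1, Hspa1a (4.23, adjusted p = 0.00725) and Hspa1b (3.74, adjusted p = 0.0121) passed at 8w, with 8w 3, the mouse nearly without T cell markers, left alone at that stage and its spread assumed to be that of the others. Without 8w 3 instead, 0 of the 10 genes passed in T.
In MP, Hspa1a at 8w (1279, 755 and 545, against 338 and 243 at 0w) had the smallest p of the 10 genes there (1.56 ± 0.74; unadjusted p = 0.0415; adjusted p = 0.771).

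Whether CM changed with stage differently from FB, EC and MP was tested directly as the CM change minus the mean change of the other 3 types, on 55 sums with the mouse as a block. By edgeR's quasi-likelihood test 0 of 40 results passed, 2 had an unadjusted p under 0.05 (Hspa1a at 2w, -1.53 ± 0.60; Bag3 at 8w, -1.54 ± 0.75), and the smallest adjusted p was 0.885. DESeq2 was not run for it. Of 19510 genes, 0% passed at 2w and 8w, 0.0666% at 5w and 0.0103% at 11w. At 2w, 5w, 8w and 11w, 672, 1248, 662 and 875 of them had an unadjusted p under 0.05. Of the 40 estimates 8 were positive, and the medians of the 4 later stages in turn were -0.42, -0.16, -0.62 and -0.43, beside 0.15, 0.65, 0.27 and -0.10 over all genes.

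Plates gave a comparison inside mice. For 5 mice with MP cells on both classes of plate, myocyte-rich plates had lower Dnajb1 and Hspa1a and higher Hspd1 in MP. Of 9534 genes 10.2% passed, and of the 10 heat shock genes 3. Dnajb1 fell from 309, 317, 262, 97.7 and 237 CPM (TMM) on poor plates to 202, 72.4, 74.6, 80.0 and 23.3 on rich plates in mice 0w 1, 0w 2, 2w 1, 2w 2 and 8w 2, lower in 5 of 5. The difference was -1.61 ± 0.46 (adjusted p = 0.0415). Hspa1a went from 378, 378, 753, 649 and 1130 to 427, 132, 360, 162 and 302 in the same mice, lower in 4 of 5, and the difference was -1.28 ± 0.35 (adjusted p = 0.0365). Hspd1 rose from 92.3, 47.3, 86.9, 37.2 and 41.1 to 215, 143, 166, 117 and 92.1, higher in 5 of 5, at 1.31 ± 0.36 (adjusted p = 0.0351). Hspa1b was lower in 4 of 5 mice (-1.02 ± 0.34; adjusted p = 0.0792) and did not pass.

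**Figure D5:**
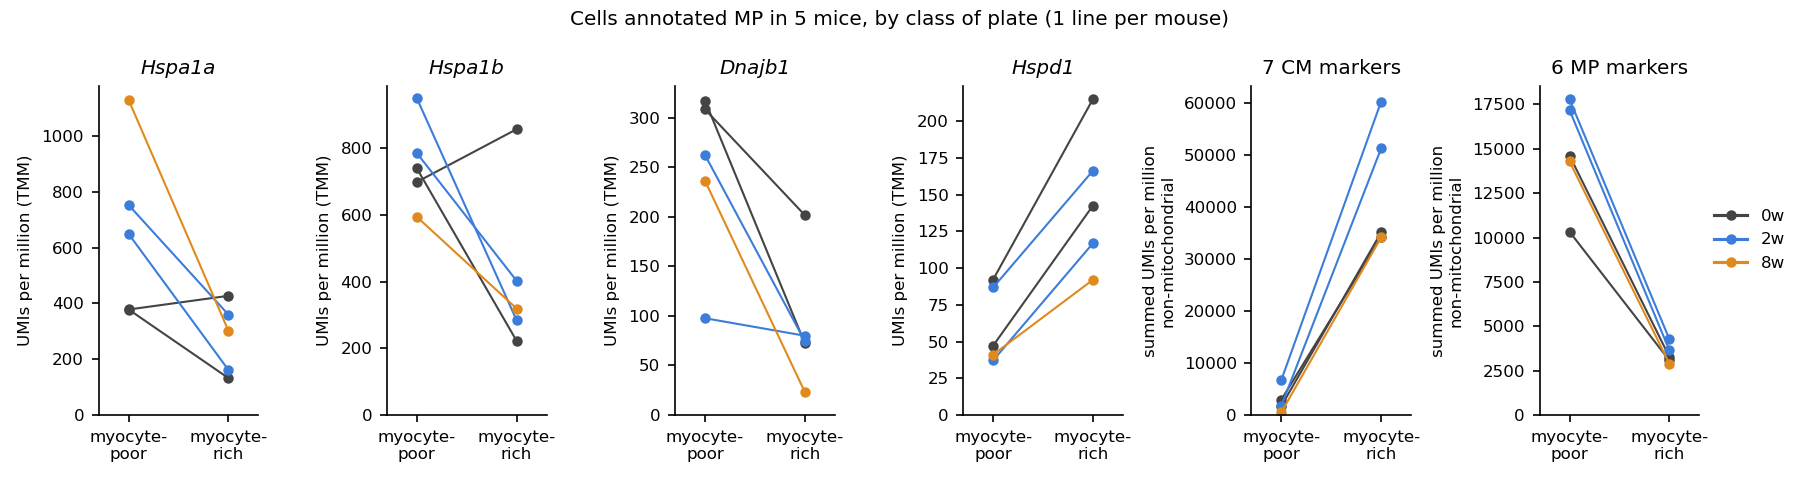
MP cells of 5 mice on myocyte-poor and myocyte-rich plates (1 line per mouse, coloured by stage): Hspa1a, Hspa1b, Dnajb1 and Hspd1 in CPM (TMM), and the summed cardiomyocyte and macrophage markers in non-mitochondrial CPM. Dnajb1 falls and Hspd1 rises in all 5 mice, and the cardiomyocyte markers rise from at most 6731 to at least 34169.

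The MP sums of rich plates also held 34169 to 60273 non-mitochondrial CPM of cardiomyocyte markers, against 532 to 6731 on poor plates, and 2900 to 4278 of macrophage markers, against 10329 to 17794. Immediate early genes were 4515 to 5865 on rich and 5654 to 8370 on poor plates. The genes that moved were therefore measured in sums that differed in their share of cardiomyocyte RNA, and its part in the 3 results was not tested. Fewer mice had other types on both classes: 3 for FB, 2 for EC and 2 for T. There 0 of the 10 genes passed in each type by edgeR's quasi-likelihood test, beside 1.8%, 1.06% and 0.388% of all genes. An unadjusted p under 0.05 was held by 0, 0 and 2 of the 10 (Hsp90aa1, -2.02, and Hspa1b, -1.91, both in T). Over all genes it was held by 735 of 6791 in FB, 324 of 3790 in EC and 828 of 9269 in T. Leaving out mouse 0w 2 or 2w 1 left 0 calls in MP, and leaving out 2w 2 or 8w 2 left 1.

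The genes most like each member were sought as the highest Pearson correlation of log2(CPM + 1), after taking out the mean of each type, over 66 mouse-by-type sums and 6369 genes. Sums share mice, plates and depth, so the values are descriptions with no p. For 6 of the 10 the first gene was a pseudogene, and 10 of the 30 pairs involved one. Hsp90aa1 went with Gm12346 (r = 0.80), a processed pseudogene of which 66.1% of 75-base windows occur in Hsp90aa1, and Hspa8 with Gm8355 (0.56; 43.3%). Reads of such copies and of the gene cannot be told apart where the sequence is shared. Hspe1 went with Hspe1-ps2 (0.71; 1.68%), and Hsp90ab1 with Gm6368 (0.61; 0.482%). Only 4 of the 30 pairs shared any 75-base window, and 2 pairs held a gene not matched in the annotation. The first pseudogenes of Hspa1a (Hsp25-ps1) and of Dnajb1 (Gm8355) shared 0% of windows with them.
Hspd1 went with Gm12141 (0.72), Nudc (0.68), itself a co-chaperone of HSP90, and the splicing factor gene Sf3b2 (0.64). Bag3 went with Clu (0.58), which encodes the secreted chaperone clusterin, and Pde4dip (0.55). Hspa1a went with Hsp25-ps1 (0.47) and Hspb1 (0.46), the small heat shock protein gene. Among the 10 themselves, Hspa1a and Hspa1b were closest (0.86), Hspa1b and Hsph1 stood at 0.60, and Hspa1a and Hspd1 were farthest apart (-0.09).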

How the data were processed

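The deposited matrix holds UMI counts per gene and cell, whole numbers with no normalization, and the authors' deposited annotation gives each cell's type, subcluster and mouse. The tools STAR 2.5.2b, Subread 1.4.6-p1 and featureCounts come from the submitters' processing notes, which name mm10 beside GRCh37 and give no roles. Here counts were summed per mouse and type (at least 10 cells), so that the mouse is the replicate. In the stage comparisons p-values measure the spread between mice. In comparisons inside mice they measure the spread left after the level of each mouse is taken out. Sums were tested two-sided with edgeR 4.0.16 (filterByExpr, TMM, robust quasi-likelihood; R 4.3.3), adjusted by Benjamini-Hochberg over all genes at 0.05, with DESeq2 1.42.0 as an alternative in the stage comparisons. Mitochondrially encoded genes (34 genes, 56.0% of UMIs) stayed in the fits and were left out of the CPM of subclusters and markers. Non-mitochondrial totals equalled the authors' deposited UMI count per cell in 73.9% of cells: in 100% on 9 plates and 0% on G and H (5w) and K (11w), where they were a median of 0.545, 0.805 and 0.481 of it, so this unexplained difference falls on certain stages. The fitting code was tested on simulated data. The 10 members were named in every comparison, with up to 4 genes of smallest p from each other list. The members and lists were chosen with earlier results of these data known. Promoter sequences come from RefSeq (GRCm38.p6), gene models from GENCODE M21. The alternatives were other scalings, filters, cell minimums, a replicate block, DESeq2, plates left out and each mouse left out.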

Additional observations from a re-analysis of the deposited data

Results flagged for a closer look

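In 4 of 30 gene-by-group sets of 4 to 10 mice, 1 mouse stood farther from the rest than Dixon's 95% critical value, which chance exceeds in about 1 of 20 such groups. Only the 5w groups of CM, EC and MP held at least 4 mice, so no other stage could give such a mouse. Levels are CPM scaled by TMM within the type. Dnajb1 in EC was 250.6 in mouse 3 against 26.8 to 58.6 in the others, from 11 cells and 143 UMIs. Hsph1 in EC was 257.6 in the same mouse against 11.6 to 26.8, from the same 11 cells and 147 UMIs. In CM, Hspa8 was 184.8 in mouse 6 against 130.3 to 142.8, from 459 cells. Hspd1 in CM was 14.1 in mouse 1 against 65.0 to 78.5, from 54 cells and 63 UMIs. Of these cells 46 belonged to CM5, the CM subcluster lowest in Hspd1 (125 non-mitochondrial CPM). The same sum held 10479 non-mitochondrial CPM of cardiomyocyte markers, against 40940 to 60287 in the other 5w mice. The part of this make-up in the Hspd1 value was not tested.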

How the results depend on the processing

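Of 146 recomputed counts of passing results, 139 stayed at a reported 0 or within 1.5 times the reported count. Of the 146, 92 left out 1 mouse. The reported count was 0 in every stage and stage-by-type comparison, where a band of 1.5 times has no width. All 22 counts of cell type results stayed within it, and of 10 plate counts 6 stayed and 4 moved. The count of stage results was 0 in FB, EC and MP under all alternatives run. In CM the replicate block moved the estimate of Hspa1b for 8w with 11w against 5w from -0.37 to 2.87. Of the 5w mice with a CM sum, only 5w 1 shares its number with a mouse of another stage. Under the block every CM contrast with 5w therefore rests on mouse 5w 1 alone at that stage. Leaving out plate E gave 1 result by edgeR's quasi-likelihood test (Dnajb1, 8w with 11w against 5w, -1.43, adjusted p = 0.0482, reported -0.88). In T leaving out plate E gave 2. Replicate numbers name different mice, and no label says that a number marks a shared batch. Residuals of same-numbered mice correlated above 0.1 in 7 of 16 pairs in CM (median 0.076, other numbers -0.019), 1 of 21 in FB, 1 of 17 in EC, 2 of 21 in MP and 0 of 17 in T, so not every pair did and the block stays an alternative. As a hint from the data, 6 of 9 (CM), 8 of 12 (FB), 5 of 11 (EC), 4 of 12 (MP) and 6 of 11 (T) mice correlated best with their own number. Over all genes and contrasts, calls in CM were 3 as reported, 510 with the block, 702 with DESeq2, 684 without a filter, 641 without plate E and up to 87 without mouse 5w 1. In FB they were 0, 6, 1454, 324, 37 and up to 15, in EC 1, 1, 499, 176, 2 and up to 3, in MP 0, 96, 126, 0, 2 and up to 6, and in T 38, 129, 742, 133, 200 and 18 to 131. Cell type results numbered 14, from 12 to 18 with 1 mouse left out, 18 without mitochondrial genes and 11 on myocyte-poor plates alone. Over all genes, type calls were 12444 and ranged from 7900 to 15664. Plate results numbered 3, from 0 to 3 with 1 mouse left out and 2 without a filter; the cause was not tested. In the test of stage by type, the count stayed 0, and 12 of 16 fits leaving out 1 mouse were not run. Of 338 recomputed values of results that passed as reported, 298 stayed past the threshold, 40 did not and 0 changed sign. Results that did not pass as reported, such as Hspa1b under the block, are not among the 338. Single sums can be small and differ in make-up: the 54 CM cells of mouse 5w 1 held 63 UMIs of Hspd1. Their cardiomyocyte markers stood at 10479 non-mitochondrial CPM, against 40940 to 60287 in the other 5w mice.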
